A study of Mus musculus with 12 samples.

Results

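Spleens of BALB/c mice deficient in Il1rn were compared at 4 months and at 1 month of age, with 3 mice and 3 arrays at each age, which are 6 of the 12 arrays of the study. The arrays were taken by their titles, so no measured value chose them. The other 6 arrays came from wild-type BALB/c spleens, again 3 at 1 month and 3 at 4 months. Each array measured biotin-labelled total RNA, extracted with Trizol, on an Affymetrix expression array. The design describes single mice and no pooling. The labels give neither the sex of the mice, the hour of dissection nor a joint score, and they do not say how the Il1rn allele was made. Because the 1-month and 4-month spleens came from different mice, a difference between the ages is a difference between groups of animals. In RNA of a whole spleen, fewer cells of a type and less RNA per cell cannot be told apart.

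Il1rn encodes the interleukin-1 receptor antagonist, a secreted protein that occupies the interleukin-1 receptor without starting a signal. Mice of the BALB/c background that lack it are known for an arthritis that develops spontaneously after weaning, and the study's title sets its aim as finding genes tied to phases of that disease. The mouse spleen is a blood-forming organ in early life, when its red pulp holds many dividing red cell and granulocyte precursors. As the animal matures, lymphocytes fill the white pulp, macrophages settle in the red pulp and the marginal zone, and plasma cells accumulate.

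The target gene was read first. Il1rn had 3 probe sets, and in the 6 Il1rn-deficient arrays their signals lay between 5.64 and 98.01. In the wild-type arrays the same probe sets lay between 24.33 and 278.4. The clearest probe set read 23.57, 40.6 and 5.64 at 1 month and 40.82, 10.1 and 14.78 at 4 months without the gene, against 120.5 to 278.4 in wild type, with no overlap between the genotypes. None of the 3 probe sets passed the age test in the Il1rn-deficient spleens (log2 differences of 0.46, -0.37 and -0.03, limma adjusted p of 0.603, 0.431 and 0.966). Where these probes lie relative to the disrupted part of the gene is not given in the sources used here.

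The spleen label was checked against defining genes in the 6 Il1rn-deficient arrays. The B cell gene Ms4a1 read 5834 to 9833, the red pulp macrophage gene Vcam1 6042 to 13752, the stromal chemokine Cxcl13 4660 to 10112 and the splenic transcription factor Tlx1 307 to 628. Liver (Alb, Apoa1, Ttr) stayed at or below 99.6, and the stomach genes Gkn1 and Muc5ac and the kidney gene Umod at or below 37.7. The stomach gene Tff1 read 394.5 to 847 and the kidney gene Kap 116 to 249, each as high at 1 month as at 4 months. The 6 arrays correlated at 0.975 to 0.983 within 1 month, at 0.968 to 0.976 within 4 months and at 0.928 to 0.957 between the ages. The highest signal on an array fell into 2 separate ranges, 33427 to 37921 on 6 arrays and 51247 to 68987 on the other 6. All 3 of the 1-month arrays and replicate 2 of the 4-month arrays lay in the low range, while replicates 1 and 3 of the 4-month arrays lay in the high one. The range is no label of a batch, and it rested in part on an Ighm reading, described below. What set these ranges apart is not given in the labels, so results are also given with the range as a block, and within the low range. There, 1 array stood for 4 months and 1 for each wild-type age, so the spread came only from the 3 Il1rn-deficient arrays at 1 month. Counts and adjusted p given for the low range thus hold no spread between 4-month mice or between wild-type mice.

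At 4 months, 6187 of 27041 probe sets tested (22.9%) differed from 1 month in the Il1rn-deficient spleen, by limma with Benjamini-Hochberg adjusted p under 0.05. Of these, 3685 (13.6%) were higher at 4 months and 2502 (9.25%) lower. At least 2-fold differences were called for 919 higher (3.40%) and 540 lower probe sets. The 3 arrays of one age lay entirely above or below the 3 of the other for 12595 probe sets (46.6%), including 6127 (99.0%) of the 6187 that passed. No overlap with 4 months higher held for 28.3%, and with 4 months lower for 18.2%. Counted by gene, with the probe set of highest mean signal standing for each of 12339 genes, 1926 (15.6%) were higher and 1339 (10.9%) lower, 26.5% in all. The split between higher and lower depended on the scaling. It was 59.6% higher with the deposited scaling, 50.8% after quantile normalization and 35.8% (2190 higher and 3927 lower) when each array was centred on its median. The median difference over all probe sets moved from 0.10 to -0.01 and -0.06 with these choices. The number that passed was 4948 with the signal range as a block and 2470 within the low range. It fell to 3653 without replicate 1 and to 4018 without replicate 3 of the 4-month arrays.

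Immunoglobulin transcripts showed the widest differences of all. An Ighm probe set, annotated to the heavy chain of IgM, read 127, 158 and 229 at 1 month and 5699, 3731 and 6073 at 4 months. Each 4-month array was far above each 1-month array, and the means stood 30.2-fold apart (log2 4.68, SE 0.24, adjusted p = 1.95e-08). Ighg3, the heavy chain of IgG3, read 390.1, 395 and 464 at 1 month against 12310, 7191 and 5156 at 4 months, again without overlap, a 19.7-fold difference on this probe set (log2 4.11, SE 0.25, adjusted p = 8.36e-08). Igha, the heavy chain of IgA, read 1845, 1756 and 1453 against 22800, 17540 and 23390, which is 12.6-fold (log2 3.63, SE 0.27, adjusted p = 9.21e-07).

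Probe sets annotated to the same immunoglobulin gene did not give the same size. The 2 brightest Ighm probe sets read 27790 to 30910 at 1 month, near the highest signals of those arrays. Their log2 differences of 0.63 and 0.54 did not pass (adjusted p of 0.186 and 0.0761). The brighter of the 2 read 59670, 29490 and 50710 at 4 months, lowest on replicate 2, the array in the low signal range. On replicate 1 that reading was the highest signal of the array, so the range rested in part on Ighm. The log2 differences of the other 5 Ighm probe sets lay between 2.03 and 4.68. A dimmer Ighg3 probe set read 109.9, 172 and 141 and then 211, 313 and 204, with a log2 difference of 0.66 (SE 0.23, adjusted p = 0.0497). These transcripts share long stretches of sequence, so an immunoglobulin probe set may have read more than 1 gene. Igkv9-120, a kappa light chain variable segment, rose by 2.67 (SE 0.37, adjusted p = 0.000204), from 296 to 382 at 1 month to 1414 to 4921 at 4 months. Jchain, which joins IgM and IgA units into polymers, read 18720, 21170 and 15920 at 1 month and 29610, 21620 and 33180 at 4 months, and its difference of 0.58 did not pass (adjusted p = 0.068).

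**Figure D1:**
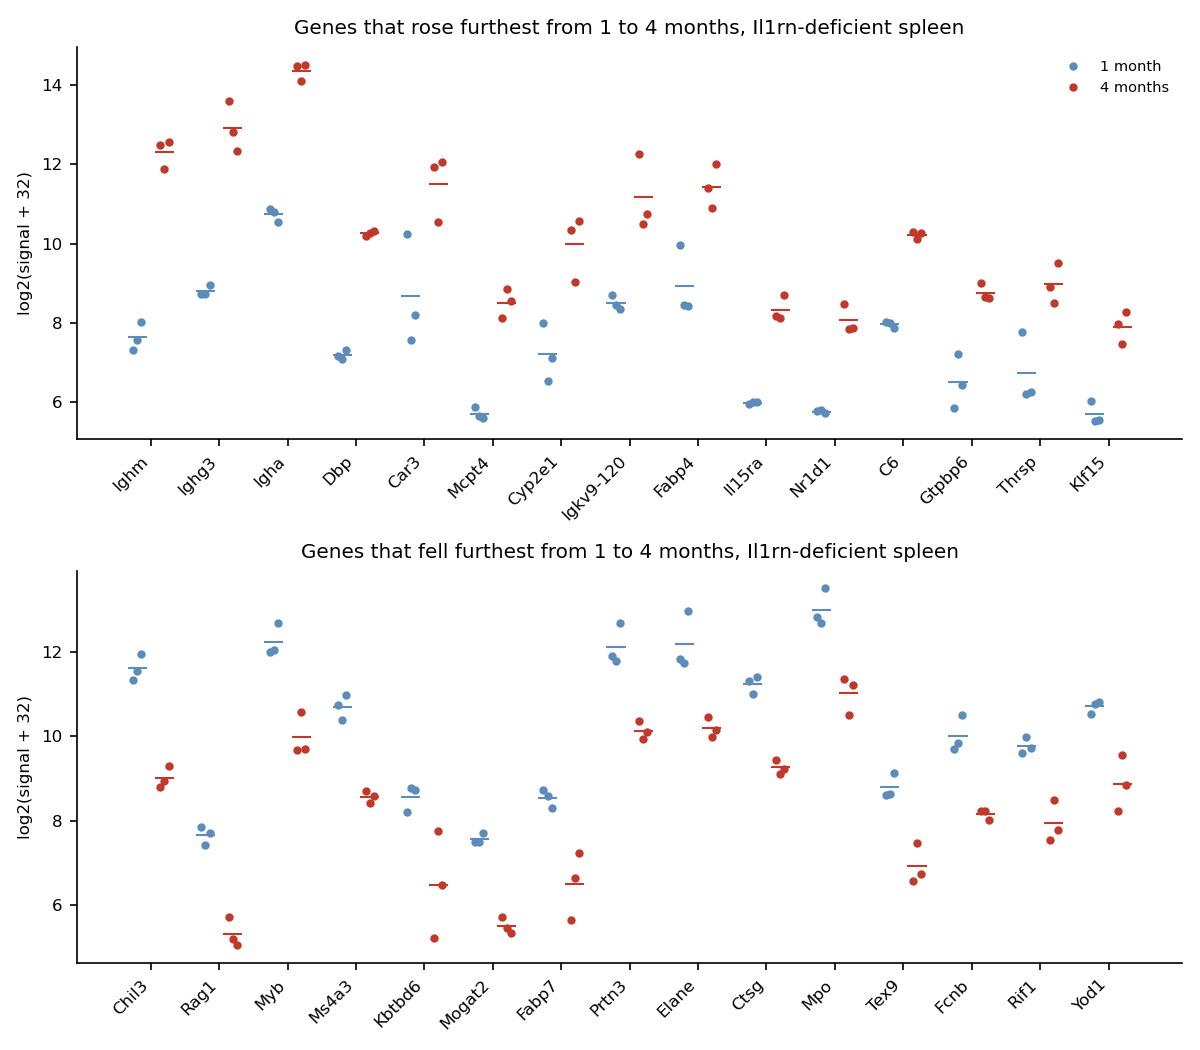
Signal of the 15 genes that rose furthest (top) and the 15 that fell furthest (bottom) among those that passed with no overlap, on a log2 scale after adding 32; each dot is 1 Il1rn-deficient spleen at 1 month (blue) or 4 months (red), and each bar is the mean of 3. The 3 dots of one age lie apart from the 3 of the other for every gene drawn, with wide spreads for Car3, Cyp2e1, Thrsp and Kbtbd6 and tight ones for C6 and Dbp.

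Beside the immunoglobulins, the largest rises belonged to genes of several unlike kinds. Dbp, a transcription factor driven by the circadian clock, rose by 3.07 (SE 0.22, adjusted p = 6.62e-07). Il15ra, which presents interleukin-15 to lymphocytes, read 29.87, 32.4 and 31.76 at 1 month and 257, 246 and 384 at 4 months (log2 2.35, SE 0.43, adjusted p = 0.00124). C6, a component of the terminal complement pore, read 229.9, 225 and 201 at 1 month and 1214, 1080 and 1202 at 4 months, 5.33-fold with hardly any spread (log2 2.26, SE 0.15, adjusted p = 1.55e-07). Gtpbp6, annotated as a GTP-binding protein, rose by 2.25 (SE 0.53, adjusted p = 0.00626).

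Several of the leading genes have known roles in fat storage or lipid metabolism. Fabp4, a fatty acid carrier of fat cells, read 972, 315 and 309.9 at 1 month and 2685, 1863 and 4074 at 4 months (log2 2.49, SE 0.46, adjusted p = 0.00136). Car3, a carbonic anhydrase abundant in fat and muscle, read 1171, 158 and 263 and then 3865, 1451 and 4252 (log2 2.84, SE 0.85, adjusted p = 0.0236). Thrsp, a regulator of lipid synthesis, rose by 2.23 (SE 0.55, adjusted p = 0.00873). In all 3, replicate 1 was the highest of the 1-month spleens and replicate 2 the lowest of the 4-month ones. Cyp2e1, a cytochrome P450 abundant in liver and fat, and Klf15, a metabolic transcription factor, had the same order and rose by 2.78 and 2.20 (adjusted p of 0.00391 and 0.00164).

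Fat tissue lies against the spleen. Of 14 named adipose genes, 9 were bright enough to test, 5 were higher at 4 months and none lower, with a median of 1.32, beside 15.6% of all genes higher. Within the low signal range 1 of the 9 was higher. Their summed signal was 6689, 3390 and 2944 at 1 month and 12526, 7872 and 14435 at 4 months. Adipoq, the defining hormone of fat cells, read 220, 29.33 and 28.41 against 409.7, 159.6 and 647, overlapping between the ages (log2 1.98, adjusted p = 0.0611). The part of attached fat in the rise of Fabp4, Car3, Thrsp, Cyp2e1 and Klf15 was not tested. Car3 had an adjusted p over the threshold without replicate 2 or 3 of the 1-month arrays or replicate 1 or 3 of the 4-month arrays (adjusted p of 0.107, 0.0816, 0.0867 and 0.0889), and the list's count was 3 without replicate 2 of the 1-month or replicate 1 of the 4-month arrays. Within the low signal range Fabp4, Thrsp and Klf15 missed the threshold too (adjusted p of 0.0561, 0.0834 and 0.0516). Pancreas genes summed to 1817 to 2882 on these 6 arrays, and none of the 6 tested passed. Of 8 muscle genes tested, 3 were higher and none lower.

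The genes that fell furthest were led by proteins of granulocyte precursors. Chil3, a chitinase-like protein stored by neutrophils and made by macrophages, read 2554, 2976 and 3911 at 1 month and 417, 462 and 595 at 4 months, 6.40-fold lower with no overlap (log2 -2.60, SE 0.22, adjusted p = 5.31e-06). Mpo, the peroxidase of the primary granule, read 7283, 6525 and 11620 and then 2596, 1433 and 2364, 3.98-fold lower (log2 -1.97, SE 0.25, adjusted p = 0.000111). The granule proteases Prtn3, Elane and Ctsg fell by 1.99, 1.98 and 1.98 on the log2 scale, and replicate 3 of the 1-month spleens was the highest of its age for each of them. Ms4a3, a membrane protein that marks granulocyte and monocyte progenitors, fell by 2.13 (SE 0.25, adjusted p = 8.02e-05).

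Among 10 primary granule genes, which are made early at the promyelocyte stage, 6 were lower and 2 higher, with a median of -1.69. The share higher was near the 15.6% of all genes. The 2 that rose, named after their values were seen, were Igsf6 (0.99) and Ctsc, a protease that activates granule enzymes (0.43), and 1 was higher without any 1 of the 6 arrays. Among 16 secondary and tertiary granule genes, made later, 14 were lower and none higher, with a median of -1.29, beside a background of 10.9% of genes lower and a median of 0.09 over all genes. Camp, the cathelicidin antimicrobial peptide, read 14860, 14750 and 18100 and then 4896, 4292 and 4599 (log2 -1.78, SE 0.21, adjusted p = 8.63e-05). Fcnb, a ficolin stored in granules, fell by 1.85 (SE 0.31, adjusted p = 0.000641), Cd177, a surface protein of neutrophils, by 1.80 (SE 0.25, adjusted p = 0.000221) and Anxa1, annexin A1, by 1.07 (SE 0.15, adjusted p = 0.000178). The summed signal of the secondary and tertiary list was 84885 to 107724 at 1 month and 41192 to 52539 at 4 months.

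Genes of mature neutrophils did not move together. Of 15 tested, 4 were higher and 5 lower, beside 15.6% and 10.9% of all genes. The median was -0.12 and ranged from -0.31 to 0.004 over the alternative settings. Slpi, an inhibitor of neutrophil proteases, read 2880, 2321 and 2951 at 1 month and 11960, 8402 and 11890 at 4 months, 3.96-fold higher (log2 1.96, SE 0.16, adjusted p = 2.8e-06). Csf3r, the receptor for the neutrophil growth factor G-CSF, rose by 0.91 (SE 0.16, adjusted p = 0.00103). Wfdc21, a small secreted protein of neutrophils, fell by 1.55 (SE 0.22, adjusted p = 0.000212), and Mxd1, a transcription factor of maturing granulocytes, by 0.91 (SE 0.14, adjusted p = 0.000387). S100a8 and S100a9, the calprotectin subunits, fell by 0.69 and 0.79 (adjusted p of 0.00405 and 0.00164), and their 1-month readings of 29140 to 33430 were near the highest signals of those arrays. The number higher was 2 without replicate 2 or 3 of the 1-month arrays or replicate 1 or 3 of the 4-month arrays.

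Myb, from the list of stem and progenitor genes, was also among the leading decreases, while that list as a whole did not fall. Myb, a transcription factor needed by immature blood cells, read 4085, 4170 and 6594 at 1 month and 792, 1507 and 802.5 at 4 months on one probe set (log2 -2.25, SE 0.35, adjusted p = 0.000399), and fell by 1.40 (SE 0.15, adjusted p = 4.25e-05) on another. Hoxa9, a homeobox factor of stem and progenitor cells, fell by 1.46 (SE 0.30, adjusted p = 0.00272), and Prom1, a progenitor surface protein, by 1.39 (SE 0.33, adjusted p = 0.00689). Over the 18 stem and progenitor genes tested, 3 were lower and 3 higher, with a median of 0.27. Among all genes 10.9% were lower and 15.6% higher. The 3 higher were Flt3, Tek and Hlf. Flt3, a cytokine receptor shared by progenitors and dendritic cells, rose by 1.24 (SE 0.22, adjusted p = 0.00109). The number higher was 1 without replicate 1 of the 4-month arrays, and Flt3 had an adjusted p of 0.0504 within the low signal range.

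Rag1, which with Rag2 recombines antigen receptor genes, read 202, 140.3 and 179 at 1 month and 20.78, 4.84 and 1.45 at 4 months, and the 3 older spleens were near the bottom of the scale (log2 -2.34, SE 0.41, adjusted p = 0.000991). Of 14 early B lineage genes tested, Rag1 was the 1 that was lower and 3 were higher (Il7r, Lef1 and Ebf1). Both shares were near those of all genes, 10.9% lower and 15.6% higher. The list's median was -0.04 and changed sign among the settings. Il7r, the interleukin-7 receptor chain that lymphoid precursors share with T cells, read 1651, 1822 and 1159 and then 3513, 3458 and 3641 (log2 1.20, SE 0.16, adjusted p = 0.000129). The count of 3 fell to 1 without replicate 3 of either age. Mogat2, an acyltransferase of triglyceride synthesis, fell by 2.05 (SE 0.38, adjusted p = 0.00128), from 148 to 178 down to 8.68 to 20.98. Fabp7, a fatty acid binding protein, fell by 2.04 (SE 0.31, adjusted p = 0.000408), Kbtbd6, annotated as a Kelch and BTB domain protein, by 2.08 (SE 0.47, adjusted p = 0.00475), and Tex9, a testis-expressed gene, by 1.86 (SE 0.26, adjusted p = 0.000214). Rif1, a regulator of replication timing, fell by 1.83 (SE 0.32, adjusted p = 0.00087), and Yod1, a deubiquitinase, by 1.83 (SE 0.31, adjusted p = 0.000697). Kbtbd6 had an adjusted p of 0.0984 within the low signal range.

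Of 35 mitosis and spindle genes tested, 33 were lower at 4 months and none higher, beside 10.9% of all genes lower. The median was -1.02. Anln, anillin of the cleavage furrow, read 4273, 4296 and 4310 at 1 month and 1427, 1771 and 1725 at 4 months, 2.62-fold lower (log2 -1.38, SE 0.16, adjusted p = 8.02e-05). The 3 young spleens were nearly equal and lay far above the 3 older ones. Ect2, an exchange factor that places the furrow, fell by 1.25 (SE 0.15, adjusted p = 8.63e-05), Bub1, a spindle checkpoint kinase, by 1.23 (SE 0.16, adjusted p = 0.000118), and Cenpf, a centromere protein, by 1.15 (SE 0.16, adjusted p = 0.000233). The 2 that did not pass were Mki67 (-0.53, adjusted p = 0.124) and Foxm1 (-0.50, adjusted p = 0.111), named after their values were seen.

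DNA replication genes followed the same course. Of 31 tested, 28 were lower and none higher, with a median of -0.99, beside 10.9% of all genes lower. Ccne2, the E2 cyclin of the entry into S phase, read 3118, 3494 and 3373 and then 769, 1298 and 1035, 3.22-fold lower (log2 -1.69, SE 0.16, adjusted p = 1.6e-05). Mcm5 and Mcm4, subunits of the replicative helicase, fell by 1.15 (SE 0.14) and 1.03 (SE 0.15), and Prim1, the primase, by 1.05 (SE 0.14), with adjusted p of 8.63e-05, 0.000213 and 0.000196. The summed signal of the mitosis list was 150672 to 161359 at 1 month and 77508 to 86706 at 4 months, and that of the replication list 178640 to 182162 and 98383 to 109967. Without any 1 of the 6 arrays, 31 to 32 mitosis genes and 25 to 27 replication genes were lower.

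The promoters of 5 of these genes are shown because the 2 lists, with medians of about the same size, held different elements. The element TTTGAA, which reads TTCAAA on the other strand, is the core of the cell cycle genes homology region, a motif known from late cell cycle promoters. Within 250 bases before to 50 bases after a start site, in RefSeq promoters of GRCm38.p6, it was present in 24 of the 30 mitosis genes that the table held (80%), in 3 of 27 replication genes (11.1%) and in 20.2% of all 27025 genes. The E2F element TTTGGCGC (GCGCCAAA) was present in 6 of 27 replication genes (22.2%), in 0 of 30 mitosis genes and in 0.585% of all genes. CCAAT or ATTGG was present in 24 of 30 mitosis genes (80%), 16 of 27 replication genes (59.3%) and 41.1% of all. Both strands were searched, matches of different elements were counted separately even where they overlapped, and a match describes letters, not a bound site. Capitals mark the TTTGAA element in Anln (chr9:22389177-22389256, minus strand), Ect2 (chr3:27153825-27153904, minus) and Cenpf (chr1:189688057-189688136, minus), and the E2F element in Mcm5 (chr8:75109320-75109399, plus) and Mcm6 (chr1:128359713-128359792, minus), 80 bases each, 5′ to 3′ in the direction of the gene.
Anln: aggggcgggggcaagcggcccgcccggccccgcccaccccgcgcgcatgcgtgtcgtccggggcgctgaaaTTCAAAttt
Ect2: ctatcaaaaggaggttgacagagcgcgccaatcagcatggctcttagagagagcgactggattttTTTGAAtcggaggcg
Cenpf: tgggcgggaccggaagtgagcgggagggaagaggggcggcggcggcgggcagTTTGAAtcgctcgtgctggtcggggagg
Mcm5: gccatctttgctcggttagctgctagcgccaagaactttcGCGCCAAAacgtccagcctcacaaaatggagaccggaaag
Mcm6: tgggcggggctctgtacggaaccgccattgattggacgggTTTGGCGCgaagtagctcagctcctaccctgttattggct
Counted from the start site, the marked element begins at base 21 in Anln, 15 in Ect2 and 2 in Cenpf, and at base -149 in Mcm5 and -47 in Mcm6. Anln, Ect2 and Mcm6 hold 2 matches each in the whole promoter, of which 1 is marked. Mcm6, a further helicase subunit, fell by 0.85 (SE 0.19, adjusted p = 0.00471).

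Of 18 red cell membrane genes tested, 11 were lower, as were 9 of 14 genes of haem synthesis and iron uptake and 7 of 14 erythroid transcription factors with the erythropoietin receptor, and none of the 3 lists had a member that rose. Their medians were -0.71, -0.64 and -0.58, and 10.9% of all genes were lower. Epb42, a protein of the red cell membrane skeleton, read 5426, 6158 and 5402 at 1 month and 959, 2814 and 1550 at 4 months (log2 -1.79, SE 0.29, adjusted p = 0.000546). Abcb10, a mitochondrial transporter of haem synthesis, fell by 1.28 (SE 0.16, adjusted p = 0.000108), Gfi1b, a repressor in red cell and platelet precursors, by 1.14 (SE 0.28, adjusted p = 0.00858), Epor, the erythropoietin receptor, by 1.05 (SE 0.25, adjusted p = 0.00696), and Tal1, a founding transcription factor of the lineage, by 0.83 (SE 0.16, adjusted p = 0.00149). Alas2, the first enzyme of haem synthesis in red cells, read 20180 to 22020 and then 20310 to 27890, overlapping between the ages (log2 0.15, adjusted p = 0.628). The count for the transcription factors was 4 without replicate 3 of the 1-month or replicate 1 or 2 of the 4-month arrays, and Gfi1b had an adjusted p of 0.0502 with the signal range as a block.

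Of 19 megakaryocyte and platelet genes tested, 3 were higher and none lower, a share close to the 15.6% of all genes that were higher. Their differences lay between 0.08 and 0.68 with a median of 0.44, and the 3 that passed were Gng11 (0.54, SE 0.15, adjusted p = 0.0147), Vwf (0.64, SE 0.20, adjusted p = 0.0294) and Alox12 (0.65, SE 0.22, adjusted p = 0.0451). The summed signal was 41747 to 45055 at 1 month and 63301, 46821 and 51828 at 4 months. None of the 3 passed without replicate 1 of either age, and only Gng11 passed with the signal range as a block (median 0.22).

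**Figure D2:**
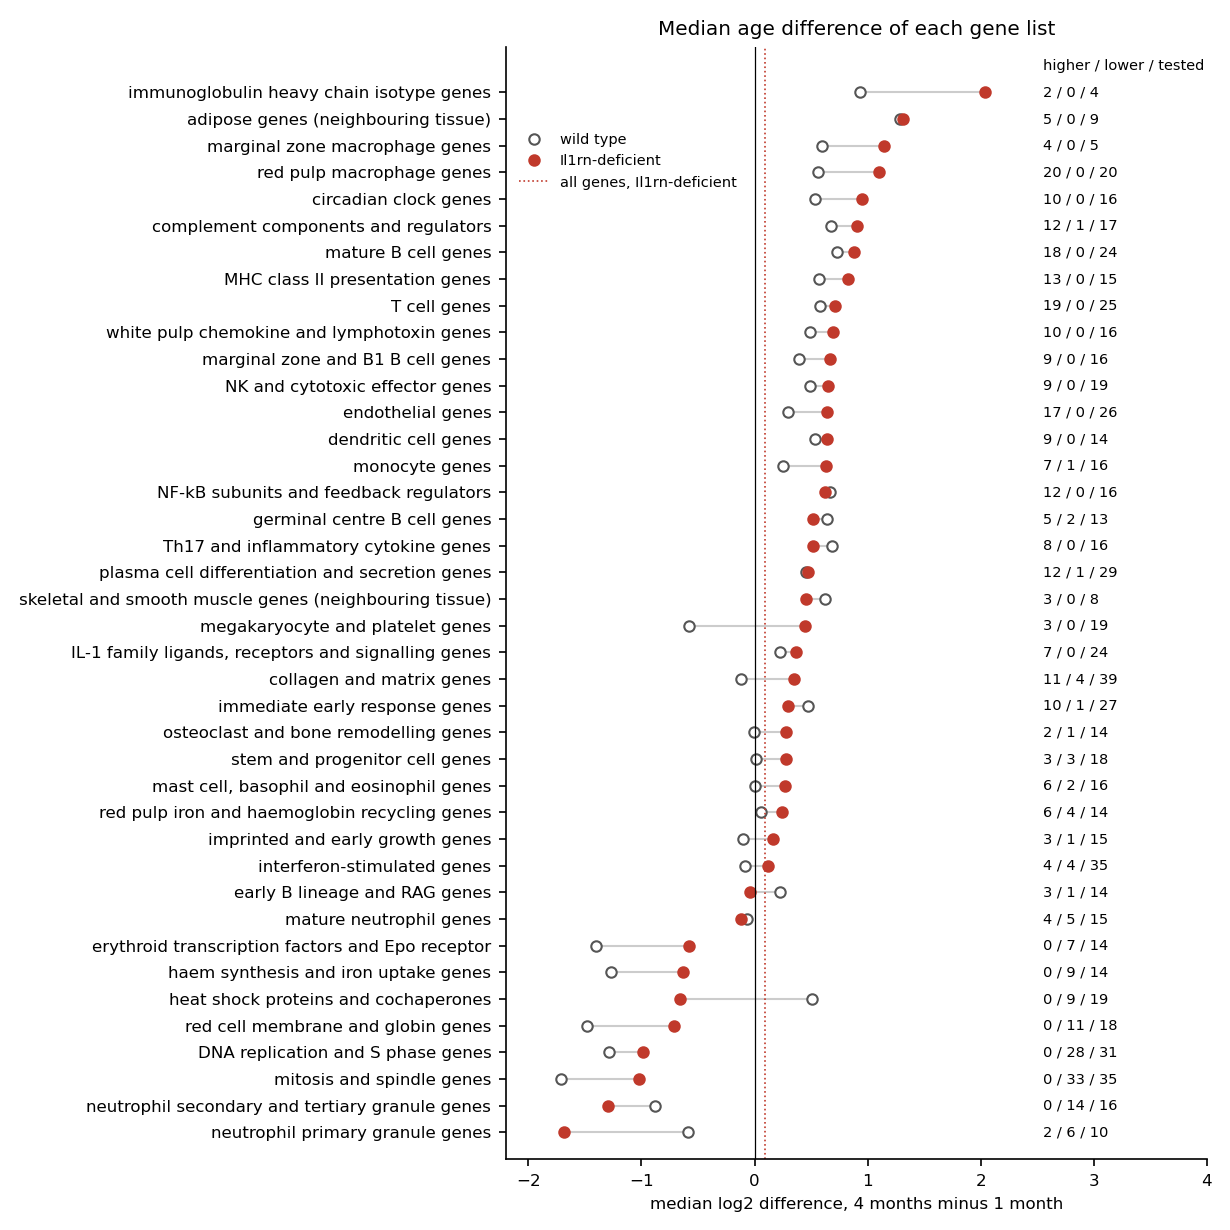
Median log2 difference between 4 months and 1 month for 40 gene lists in the Il1rn-deficient spleen (filled) and in wild type (open), with the numbers of genes higher, lower and tested at the right; the dotted line is the median of all genes in the Il1rn-deficient spleen. The granule, red cell, cell division and heat shock lists lie below 0 in the Il1rn-deficient spleen, and the T cell, mature B cell, macrophage, clock and adipose lists above it.

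Mature B cell genes rose together. Of 24 tested, 18 were higher at 4 months and none lower, with a median of 0.88, beside a background of 15.6% of genes higher. Cr2, the complement receptor of B cells and follicular dendritic cells, read 2185, 2275 and 1558 at 1 month and 5740, 5543 and 5785 at 4 months, with no overlap (log2 1.51, SE 0.15, adjusted p = 1.61e-05). Cd22, an inhibitory coreceptor, rose by 1.17 (SE 0.15, adjusted p = 0.00014), Cxcr5, the receptor that guides B cells into follicles, by 1.17 (SE 0.16, adjusted p = 0.000158), and Fcmr, the IgM Fc receptor, by 0.87 (SE 0.13, adjusted p = 0.000387). Ms4a1, which encodes CD20, had a difference of 0.38 that did not pass (adjusted p = 0.0641). The list's summed signal was 83689 to 93934 at 1 month and 130643 to 177742 at 4 months.

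Among 16 marginal zone and B1 cell genes, 9 were higher, beside 15.6% of all genes, and none lower. The median was 0.67. Dtx1, a target of Notch signalling, read 1102, 1033 and 1296 and then 3885, 2625 and 3187 (log2 1.46, SE 0.18, adjusted p = 9.62e-05). Asb2, a substrate adaptor of a ubiquitin ligase, rose by 1.10 (SE 0.14, adjusted p = 0.000135), and Cd9, a tetraspanin, by 0.72 (SE 0.13, adjusted p = 0.00129). Within the low signal range 5 were higher and 1 lower. Of 13 germinal centre genes, 5 were higher and 2 lower, led by Basp1 (1.13, SE 0.16, adjusted p = 0.000273), Fcrl1 (1.04, SE 0.16, adjusted p = 0.000315) and Pou2af1, a coactivator of immunoglobulin genes (0.76, SE 0.13, adjusted p = 0.000991). The 2 that fell were Ung, a uracil glycosylase of DNA repair, and Lmo2, a transcription cofactor (-0.68 and -0.44), and this count was 0 without replicate 3 of the 1-month arrays and 1 without any 1 of the other 5. Bcl6, the defining factor of germinal centre B cells, did not pass (0.52, adjusted p = 0.0609). The share of germinal centre genes lower was near the 10.9% of all genes, while 15.6% of all genes were higher.

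Genes of plasma cell differentiation and secretion gave 12 higher and 1 lower of 29, beside 15.6% and 10.9% of all genes. The median was 0.47. Txndc5, a folding enzyme of the secretory pathway, read 2889, 2898 and 3051 at 1 month and 7860, 5874 and 7413 at 4 months (log2 1.24, SE 0.14, adjusted p = 5.12e-05). Derl3, part of the export of misfolded proteins, rose by 1.26 (SE 0.19, adjusted p = 0.000411), and Prdm1, the factor that drives plasma cell fate, by 1.19 (SE 0.17, adjusted p = 0.000214). The gene that fell was Ell2, an elongation factor that plasma cells use to make secreted immunoglobulin, which read 4445, 4528 and 4945 and then 2010, 2667 and 1974 (log2 -1.07, SE 0.17, adjusted p = 0.000479). Within the low signal range 6 were higher and 1 lower.

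Of 25 T cell genes tested, 19 were higher and none lower, with a median of 0.71, beside 15.6% of all genes higher. Cd4, the coreceptor of helper T cells, read 175, 339 and 169 at 1 month and 766, 680 and 633 at 4 months (log2 1.54, SE 0.23, adjusted p = 0.000358). Ccr7, which guides naive T cells into the white pulp, rose by 1.10 (SE 0.17, adjusted p = 0.000458), and Satb1, a chromatin organiser of T cells, by 0.95 (SE 0.16, adjusted p = 0.000762). The count was 12 without replicate 3 of either age, 15 with the signal range as a block and 3 within the low range, where the median was 0.56 and Ccr7 had an adjusted p of 0.0518.

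Of 19 NK and cytotoxic genes, 9 were higher and none lower, with a median of 0.65, beside 15.6% of all genes higher. Ccl5, a chemokine of effector lymphocytes, read 1986, 2476 and 1604 and then 4977, 3767 and 4761 (log2 1.15, SE 0.20, adjusted p = 0.000768). Prf1, perforin, rose by 1.07 (SE 0.23, adjusted p = 0.00317), Klrd1, a subunit of NK receptors, by 0.94 (SE 0.16, adjusted p = 0.000841) and Gzma, granzyme A, by 0.90 (SE 0.16, adjusted p = 0.000959). Of 14 dendritic cell genes, 9 were higher and none lower, with a median of 0.64, beside the same 15.6%. Xcr1, the chemokine receptor of cross-presenting dendritic cells, rose by 1.54 (SE 0.25, adjusted p = 0.000508), and Itgax, the integrin CD11c, by 1.20 (SE 0.14, adjusted p = 8.63e-05). The dendritic count was 3 within the low signal range.

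MHC class II presentation was higher in 13 of 15 genes and lower in none, beside 15.6% of all genes higher. The median was 0.83. H2-DMa, which helps load peptides, read 2259, 1716 and 1361 and then 4521, 4455 and 4487 (log2 1.35, SE 0.17, adjusted p = 0.000127). H2-Ab1, the beta chain of the I-A molecule, rose by 1.16 (SE 0.18, adjusted p = 0.000408), and Ciita, the master activator of these genes, by 1.07 (SE 0.16, adjusted p = 0.000387). The 3 older spleens lay above the 3 younger ones in all 15 genes, while 28.3% of all probe sets did so.

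Red pulp macrophage genes were higher in all 20 tested, beside 15.6% of all genes. Their median was 1.10, with differences of 0.71 to 1.46. These macrophages clear aged red cells and return their iron to the blood. Slc11a1, a metal transporter of the phagosome, read 1085, 1062 and 1046 at 1 month and 3128, 2661 and 3200 at 4 months (log2 1.46, SE 0.12, adjusted p = 4.93e-06). Cd163, the scavenger receptor for haemoglobin bound to haptoglobin, read 479, 534 and 496 and then 1198, 1292 and 1363 (log2 1.30, SE 0.14, adjusted p = 4.25e-05). Spic, the transcription factor these cells depend on, rose by 1.25 (SE 0.16, adjusted p = 0.000103), and Cd5l, a secreted macrophage protein, by 1.29 (SE 0.15, adjusted p = 6.73e-05). The summed signal was 61630 to 70576 at 1 month and 130568 to 137974 at 4 months. All 20 also passed without any 1 of the 6 arrays and with the signal range as a block, and 19 passed within the low range.

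Genes of marginal zone macrophages, which line the border of the white pulp, were higher in 4 of 5. Marco, a scavenger receptor, read 1003, 686 and 409 and then 2238, 2419 and 2032 (log2 1.71, SE 0.22, adjusted p = 0.00013). Cd209b, a lectin that binds microbial sugars, rose by 1.49 (SE 0.27, adjusted p = 0.00108), and Nr1h3, the nuclear receptor LXR alpha, by 1.11 (SE 0.17, adjusted p = 0.000367). Of 16 monocyte genes, 7 were higher and 1 lower, with Cd14, the coreceptor for bacterial lipopolysaccharide, up by 1.42 (SE 0.24, adjusted p = 0.00074) and Fcgr1, a high-affinity IgG receptor, up by 1.06 (SE 0.19, adjusted p = 0.00116). The gene that fell was F13a1, a clotting factor subunit (-0.62, adjusted p = 0.0154). It did so neither without replicate 3 of the 1-month arrays nor without replicate 2 of the 4-month ones. Over all genes, 15.6% were higher and 10.9% lower.

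The iron and haemoglobin recycling list split, with 6 of 14 higher and 4 lower, beside 15.6% and 10.9% of all genes. Lrp1, the receptor for haem bound to haemopexin, rose by 1.52 (SE 0.21, adjusted p = 0.000211), and Hmox1, the enzyme that opens the haem ring, by 1.17 (SE 0.17, adjusted p = 0.000257). The 4 that fell, named after their values were seen, were Hp, haptoglobin, which granulocytes also store, Tfr2, Blvrb and Slc11a2, with differences of -1.20, -0.90, -0.66 and -0.65. Hp, Blvrb and Slc11a2 stand also in the granule, red cell or haem lists above. The number lower was 2 without replicate 3 of the 1-month or replicate 1 of the 4-month arrays, and 2 with the signal range as a block.

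Complement genes were higher in 12 of 17 and lower in 1, beside 15.6% and 10.9% of all genes. The median was 0.91. Beside C6, the C1q chain gene C1qc read 3464, 3597 and 3381 and then 8428, 7405 and 8631 (log2 1.22, SE 0.17, adjusted p = 0.000195). Serping1, the inhibitor of C1, rose by 1.04 (SE 0.15, adjusted p = 0.000314). Cd59a, which blocks the terminal pore, fell by 0.76 (adjusted p = 0.00275). C1qc stands in the red pulp macrophage list too, and Cr2 in the B cell list.

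**Figure D3:**
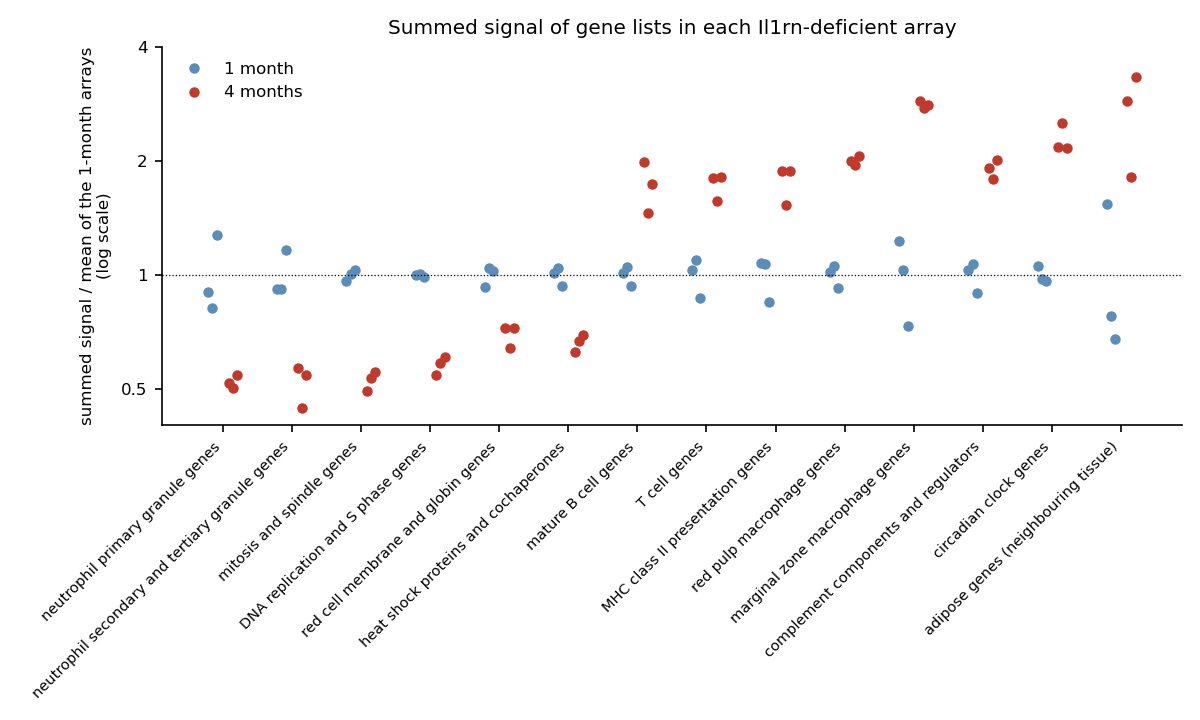
Summed signal of 14 gene lists on each Il1rn-deficient array, divided by the mean of the 3 arrays at 1 month, on a log axis; each point is 1 spleen at 1 month or at 4 months. The red pulp macrophage sums at 4 months lie close together and above 1, the cell division sums below 1, and the adipose sums spread widely at both ages.

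Of 26 endothelial genes, 17 were higher and none lower, with a median of 0.64, beside 15.6% of all genes higher. Pecam1, an adhesion molecule of endothelium and platelets, read 543, 438 and 322 and then 1175, 1220 and 1127 (log2 1.40, SE 0.18, adjusted p = 0.000131), and Sox18, an endothelial transcription factor, rose by 1.02 (SE 0.17, adjusted p = 0.000718). Of 16 white pulp genes, 10 were higher and none lower, beside the same 15.6%. Il7, the survival cytokine of lymphocytes, read 181, 163 and 159.5 and then 410.3, 424 and 379 (log2 1.13, SE 0.18, adjusted p = 0.000436), and Cxcl12, a chemokine that retains blood-forming and plasma cells, rose by 0.81 (SE 0.12, adjusted p = 0.000367). The endothelial count was 11 without replicate 3 of the 4-month arrays and 7 higher and 1 lower within the low signal range, where the white pulp count was 5.

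Of 39 matrix genes tested, 11 were higher, beside 15.6% of all genes, and the median was 0.35. Lower were 4, a share close to the 10.9% of all genes. Mgp, an inhibitor of calcification, read 372.5, 381.5 and 418 and then 1268, 960 and 1366 (log2 1.53, SE 0.23, adjusted p = 0.000319), Dcn, decorin, rose by 1.14 (SE 0.21, adjusted p = 0.00121) and Timp3, an inhibitor of metalloproteinases, by 1.08 (SE 0.16, adjusted p = 0.000283). The 4 lower genes, named after their values were seen, were Eln, Col5a1, Col3a1 and Col4a1, elastin and 3 collagen chains, at -0.92, -0.71, -0.71 and -0.53. The number higher was 7 without replicate 2 or 3 of the 1-month or replicate 1 or 3 of the 4-month arrays, and 4 within the low signal range.

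The interleukin-1 family was read because the missing gene belongs to it. Of 24 ligands, receptors and signalling genes, 7 were higher and none lower, beside 15.6% of all genes higher. The median was 0.37. Among the ligands, Il18 read 2564, 2216 and 1922 and then 4079, 4344 and 4563 (log2 0.95, SE 0.15, adjusted p = 0.000479). Il1b read 1041, 796 and 457 and then 1419, 1329 and 1519 (log2 0.94, SE 0.29, adjusted p = 0.0284), while Il1a and Il33 had differences of 0.16 and 0.00 (adjusted p of 0.71 and 0.999). Among the receptors, Il18r1, the interleukin-18 receptor, read 391, 177 and 170.3 and then 842, 875 and 917 (log2 1.80, SE 0.29, adjusted p = 0.000532), and Sigirr, a receptor that dampens signalling, rose by 0.70 (SE 0.17, adjusted p = 0.00766). Il1r1, through which interleukin-1 signals, had a difference of 0.34 with overlap (adjusted p = 0.353). Casp1, the protease that matures interleukin-1 beta and interleukin-18, rose by 1.04 (SE 0.20, adjusted p = 0.0017). The count was 4 without replicate 3 of either age, a share close to that of all genes. Within the low signal range, with 1 array at 4 months, the difference of Sigirr was 0.51.

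Of 16 NF-kB subunits and feedback regulators, 12 were higher and none lower, beside 15.6% of all genes higher. The median was 0.62. Relb, a subunit of the noncanonical pathway, read 351, 497 and 525 and then 1367, 938.5 and 1092 (log2 1.25, SE 0.21, adjusted p = 0.00082). The count was 6 without replicate 2 of the 1-month or replicate 3 of the 4-month arrays, 7 without replicate 3 of the 1-month or replicate 1 of the 4-month arrays and 5 within the low range. Of 27 Th17 and inflammatory cytokine genes on the array, 16 were bright enough to test. Of these, 8 were higher and none lower, beside 15.6% of all genes higher. Ccr6, a receptor of Th17 and B cells, rose by 1.19 (SE 0.18, adjusted p = 0.000306) and Csf1, the macrophage growth factor, by 1.14 (SE 0.17, adjusted p = 0.000256), while Tnf had a difference of 0.30 (adjusted p = 0.662). This count was 5 without replicate 1 of either age and 4 within the low range.

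Of 35 interferon-stimulated genes, 4 were higher, a share under the 15.6% of all genes. Another 4 were lower, a share close to the 10.9% of all genes. The median was 0.12 and changed sign among the settings. Irgm2, an interferon-induced GTPase, fell by 0.95 (SE 0.16, adjusted p = 0.000643), and Eif2ak2, the kinase PKR, by 0.92 (SE 0.18, adjusted p = 0.00192), with Usp18 and Oas1a at -0.65 and -0.89. The 4 that rose, with small differences, were Bst2, Ifit3, Ifi27l2a and Ddx58 (0.65, 0.52, 0.52 and 0.49). None was higher without replicate 3 of either age or replicate 1 of the 4-month arrays, and 2 were without replicate 1 of the 1-month arrays. Of 27 immediate early genes, 10 were higher and 1 lower, beside 15.6% of all genes higher and 10.9% lower. Ccn2, a matricellular growth factor, rose by 1.25 (SE 0.17, adjusted p = 0.000193) and Zfp36, which destabilises cytokine transcripts, by 1.02 (SE 0.14, adjusted p = 0.000203), while Ccn1, a relative of Ccn2, fell by 1.11 (adjusted p = 0.00217). Fos and Egr1 had differences of 0.05 and -0.09 (adjusted p of 0.908 and 0.752).

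Genes of mast cells, basophils and eosinophils gave 6 higher and 2 lower of 16, beside 15.6% of all genes higher and 10.9% lower. The share lower was thus close to that of all genes. Mcpt4, a protease of connective tissue mast cells, read 26.8, 17.93 and 16.44 at 1 month and 244.5, 429.6 and 341 at 4 months (log2 2.80 after adding the offset of 32, SE 0.26, adjusted p = 1.22e-05). The 1-month signals of Mcpt4 lay below all readings of the liver gene Alb on these arrays (39.3 to 99.6), so no fold is given, and the size of the log2 difference depends on the offset. Cpa3, the mast cell carboxypeptidase, read 132, 138 and 146 and then 283, 395 and 348 (log2 1.12, SE 0.19, adjusted p = 0.000714). The 2 that fell were Mcpt8, a basophil protease, and Hdc, which makes histamine (-1.11 and -1.40, adjusted p of 0.0172 and 0.0235). Prg2 and Epx, the eosinophil granule proteins, did not pass (adjusted p of 0.0643 and 0.0653). Prg2 read 946, 112 and 5253 at 1 month and 231, 129 and 186 at 4 months, and Epx 153, 59.11 and 1335 and then 107, 20.68 and 37.38. Replicate 3 of the 1-month spleens stood far above the other 5 in both genes. The number higher was 3 without replicate 2 or 3 of the 4-month arrays. The number lower was 0 without replicate 3 and 4 without replicate 2 of the 1-month arrays, and 1 without any 1 of the other 4.

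The circadian clock is a feedback loop in which activators of the Bmal1 type drive their own repressors and a set of output factors, so the level of these genes depends on the hour of sampling, which the labels do not give. Of 16 tested, 10 were higher and none lower, with a median of 0.95, beside 15.6% of all genes higher. Dbp read 110.6, 104.5 and 128 at 1 month and 1138, 1204 and 1249 at 4 months, 10.5-fold apart with no overlap. Nr1d2, a repressor of the loop, read 1067, 935 and 663 and then 3311, 4644 and 3534 (log2 2.08, SE 0.20, adjusted p = 1.65e-05). Nr1d1, its close relative, read 22.58, 23.3 and 20.55 and then 325, 197 and 200.9 (log2 2.30, SE 0.40, adjusted p = 0.000867).

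The output factor Tef read 572, 554 and 446 at 1 month and 1364, 1424 and 1264 at 4 months (log2 1.32, SE 0.15, adjusted p = 6.91e-05). The period gene Per3 read 114, 116 and 58.66 and then 391.5, 370.5 and 349 (log2 1.68, SE 0.24, adjusted p = 0.000211). Arntl, which encodes Bmal1, had a difference of -0.27 (adjusted p = 0.31), and Per1, Cry1 and Cry2 had differences of -0.07, 0.06 and 0.16 (adjusted p of 0.865, 0.861 and 0.766), all overlapping between the ages. In wild type, where the hour is equally unknown, Dbp, Nr1d2, Nr1d1 and Per3 had age differences of 1.27, 0.97, 1.27 and 0.70, and the difference between the genotypes did not pass for any of them (adjusted p of 0.0539, 0.266, 0.631 and 0.41). The part of the hour of sampling in these differences was not tested.

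The promoters of Tef and Per3 show the elements through which clock factors are known to act. The E-box CACGTG, bound by the activators, was present in 5 of 14 clock genes (35.7%) and in 8.09% of all genes, and the D-box TTATGTAA (TTACATAA), bound by Dbp and Tef, in 1 of 14 (7.14%) and in 1.11% of all. The same windows, table and strands were used as above, and the elements were counted separately. Capitals mark the E-box in Tef (chr15:81802506-81802585, plus strand) and a D-box in Per3 (chr4:151044784-151044863, minus strand), which begin at base -127 and base -158 from a start site.
Tef: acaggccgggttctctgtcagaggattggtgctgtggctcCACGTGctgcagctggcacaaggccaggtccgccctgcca
Per3: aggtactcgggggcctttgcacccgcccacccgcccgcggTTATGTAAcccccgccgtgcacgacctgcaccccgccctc
The Per3 promoter holds 2 matches, of which 1 is marked, and Tef has 2 start sites in the table with 1 match each, of which 1 is shown. A match describes letters and says nothing of whether a factor was bound in these spleens.

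Of 19 heat shock proteins and cochaperones, 9 were lower and none higher, with a median of -0.66, beside 10.9% of all genes lower. Dnajb1, a cochaperone of Hsp70, read 5800, 5891 and 5656 at 1 month and 3401, 3401 and 3354 at 4 months, with hardly any spread (log2 -0.77, SE 0.15, adjusted p = 0.00204). Hspd1, the mitochondrial chaperonin, fell by 0.77 (SE 0.15, adjusted p = 0.00231), Hsp90aa1, an inducible Hsp90, by 0.71 (SE 0.17, adjusted p = 0.00733) and Hspe1, the partner of Hspd1, by 0.69 (SE 0.17, adjusted p = 0.00679). The summed signal was 101511 to 113066 at 1 month and 67623 to 75323 at 4 months. The count was 5 without replicate 3 of the 4-month arrays and 5 with the signal range as a block, where the median was -0.31, and 11 within the low range.

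The age differences were then set beside those of wild type. In wild type 5795 probe sets (21.4%) passed between the ages. Over all 27041 probe sets the differences of the genotypes, which share no arrays, correlated at r = 0.673 and rho = 0.662, as a description across probe sets that are not independent. Of the 6187 that passed in the Il1rn-deficient spleen, 5918 had the same sign in wild type, and 3482 passed in both, which is 56.3% of one list and 60.1% of the other. The age effect itself differed between the genotypes for 13 probe sets (0.0481%), 8 more positive (0.0296%) and 5 more negative (0.0185%) in the Il1rn-deficient spleen, and 2338 had an unadjusted p under 0.05.

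**Figure D4:**
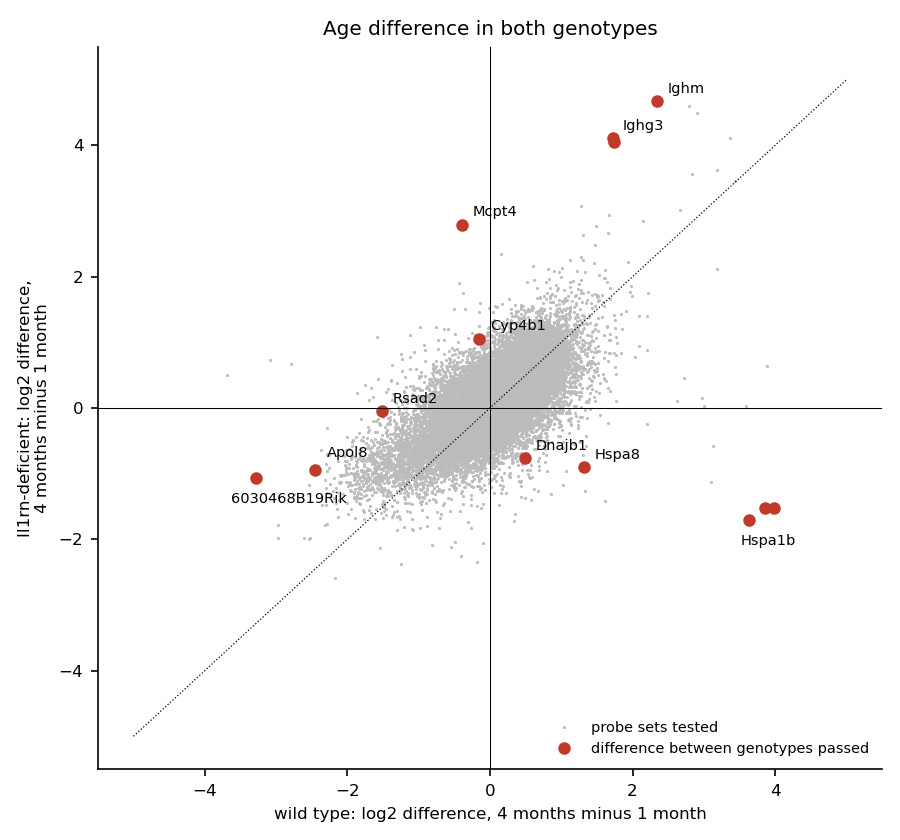
Log2 difference between 4 months and 1 month of 27041 probe sets in wild-type (horizontal) and Il1rn-deficient (vertical) spleens, with the 13 probe sets whose age effects differed marked. Most probe sets follow a common diagonal, and the marked ones lie off it.

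Mcpt4 had the largest positive difference between the age effects. In wild type Mcpt4 read 320, 311.1 and 424 at 1 month and 169.5, 360.2 and 279 at 4 months, overlapping, against 16.44 to 26.8 and 244.5 to 429.6 without Il1rn. For Mcpt4 the difference between the age effects was 3.18 (SE 0.37, limma adjusted p = 0.00596), and the 1-month Il1rn-deficient group lay below the other 3 groups. Ighg3 rose in both genotypes, to 1486, 1764 and 1441 in wild type, and on this probe set the age effects differed by 2.39 (SE 0.35, adjusted p = 0.0143). The other, dimmer Ighg3 probe set gave a difference between the age effects of 0.21 (adjusted p = 0.892). For 2 Ighm probe sets the age effects differed by 2.33 and 2.30 (adjusted p of 0.013 and 0.00747), while the other 5 Ighm probe sets did not pass.

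Cyp4b1, a cytochrome P450, read 1097, 1311 and 1268 and then 2519, 2538 and 2684 without Il1rn, against 1286 to 1490 and 1200 to 1402 in wild type, a difference of 1.21 (SE 0.19, adjusted p = 0.0253). Rsad2, an antiviral interferon-stimulated gene, overlapped between the ages without Il1rn (5583 to 7990) and fell in wild type from 6818 to 9205 down to 2474 to 3368, a difference of 1.47 (SE 0.23, adjusted p = 0.0278). 6030468B19Rik and Apol8 fell in both genotypes, with log2 age differences of -1.07 and -0.94 without Il1rn and of -3.29 and -2.46 in wild type (adjusted p of the difference 0.0332 and 0.0406). Rsad2 and Cyp4b1 are named because all 13 are given.

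All 5 probe sets with the more negative effect belonged to chaperones. Hspa1b, an inducible Hsp70, read 1399, 1504 and 1226 and then 309.4, 459 and 444 without Il1rn on one probe set. In wild type it read 160.3, 439.7 and 751 and then 3482, 2870 and 13210, the opposite direction, with a difference between the age effects of -5.34 (SE 0.67, adjusted p = 0.00747). The other 2 Hspa1b probe sets gave -5.39 and -5.50 (adjusted p of 0.00948 and 0.00747). Hspa8, the constitutive Hsp70, and Dnajb1 gave -2.22 (SE 0.35, adjusted p = 0.0278) and -1.26 (SE 0.21, adjusted p = 0.0445). The brightest Hspa8 probe set overlapped between the ages without Il1rn (-0.37, adjusted p = 0.166). For Hspa1b without Il1rn alone, the 3 probe sets had age differences of -1.705, -1.52 and -1.52 (adjusted p of 0.0168, 0.0465 and 0.0437). The 3 older spleens lay below the 3 younger ones on each. Alternatives were run for the third, whose SE of 0.52 also held the wild-type spread (3543 to 15760 at 4 months). Its adjusted p was 0.0787 to 0.128 without any 1 of the 6 Il1rn-deficient arrays. With the signal range as a block its difference was -0.75 (adjusted p = 0.296).

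**Figure D5:**
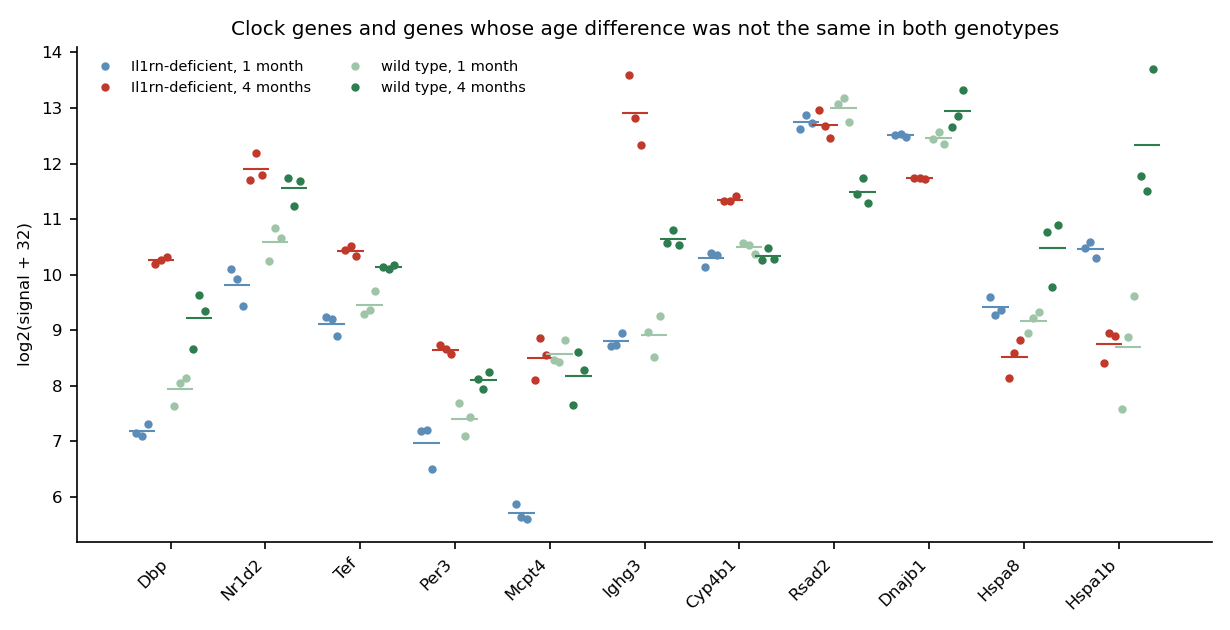
Signal on a log2 scale after adding 32 in the 4 groups, Il1rn-deficient and wild-type at 1 and 4 months, for 11 genes; each point is 1 spleen and each bar the mean of 3. Mcpt4 is low only in the 1-month Il1rn-deficient spleens, and Hspa1b goes down with age without Il1rn and up in wild type.

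With the signal range as a block, 9 of the 13 differences between genotypes passed, and those of Apol8, Cyp4b1, Dnajb1 and Hspa8 did not (adjusted p of 0.111, 0.0802, 0.0891 and 0.0993). Within the low range the 4-month Il1rn-deficient group and each wild-type group were 1 array, so only sizes are given. The difference was 2.738 for Ighg3, 3.058 for 6030468B19Rik, and -5.594, -5.953 and -6.006 for the 3 Hspa1b probe sets. Both wild-type arrays there were replicate 3, the highest of its age on all 3 Hspa1b probe sets. The 2 Ighm differences were at most 1.56 there, smaller than with all 12 arrays. The difference was 3.698 for Mcpt4, 1.667 for Apol8, 1.377 for Rsad2, 1.123 for Cyp4b1, -1.735 for Dnajb1 and -2.404 for Hspa8. The number that passed was 5 without replicate 1 or 2 and 8 without replicate 3 of the 1-month Il1rn-deficient arrays, 6 and 7 without replicate 1 and 2 of the 4-month ones, 48 without replicate 3 of the 1-month wild-type arrays and 92 without replicate 2 of the 4-month wild-type arrays. On that last array pancreas genes summed to 193514, against 1817 to 2882 on the other 11, and their part in these differences was not tested.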

How the data were processed

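RNA of 12 BALB/c spleens, 3 in each of 4 groups by genotype and age, was read on Affymetrix arrays of 45101 probe sets. The deposited values are intensity on a linear scale, 1 signal per probe set, made by the authors with MAS5 per the submitters' processing notes, with no read depth; the number of arrays limits the precision. Arrays were brought to a common trimmed mean, 500, leaving out 2% of values at each end. Probe sets with a signal of at least 100 on 3 or more of the 12 arrays were kept (27041), without 64 control probe sets. Log2(signal + 32) was fitted with limma 3.58.1 in R 4.3.3, with 4 group means, an intensity trend and Benjamini-Hochberg adjustment over all 27041, threshold 0.05. The fit was also run on simulated normal noise drawn with its own estimated spread, which checks the code only. That run held no signal ranges, attached tissue or unequal spread between groups. Fold changes on this scale understate those of dim probe sets. Folds in words are of group means without the offset where a mean is named, and log2 differences include it. Platform annotation gave 34958 probe sets 1 symbol, 932 several and 9211 none; the brightest probe set stood for a gene in a list.

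Named genes were Il1rn, the 15 largest and 15 smallest differences without overlap, the first 5 each way between genotypes, and, per list, at most 4 members by rank of p; others are given as named after their values were seen or as defining members of a list. Members and lists were chosen with earlier results of these data known. The p-values measure the spread between these mice, and within the low signal range only that between the 3 Il1rn-deficient mice at 1 month. Alternatives covered scaling, offset, filter, variance model, threshold, blocks, array subsets and each array left out.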

Additional observations from a re-analysis of the deposited data

Results flagged for a closer look

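The change with age differed between the genotypes for 13 probe sets by the interaction term of the limma fit (Benjamini-Hochberg adjusted p under 0.05). Each value here is the log2 age difference without Il1rn minus that in wild type. It was 3.18 for Mcpt4, 2.39 for Ighg3, and 2.33 and 2.30 for 2 Ighm probe sets. It was 2.21 for 6030468B19Rik, 1.52 for Apol8, 1.47 for Rsad2 and 1.21 for Cyp4b1. It was -1.26 for Dnajb1, -2.22 for Hspa8, and -5.33, -5.39 and -5.50 for 3 Hspa1b probe sets, which read the same gene. The Hspa1b values in the 4-month wild-type spleens ranged from 2870 to 13210 on one probe set, with replicate 3 the highest.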

How the results depend on the processing

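Over 169 named probe sets that passed with age, 4871 of 5065 alternative values kept their direction and side of the threshold, 194 kept the direction but missed it and 0 reversed. The 3 Il1rn probe sets passed under none of 87 values, of which 6 changed sign, all on 1 probe set (range -0.34 to 0.19). Of 377 values for the 13 genotype differences, 274 kept both and 103 missed the threshold. Of the 169, 104 passed under every alternative tried, 17 were lost without at least 1 array, 9 with the signal range as a block and 36 within the low range. Against 6187 age calls, array weights gave 11052, a 2-fold minimum 1459, the low range 2470, and the replicate number with the signal range as blocks 3692; leaving out 1 array gave 3653 to 6692. Against 13 genotype differences, no filter gave 8, no trend 1, array weights 30, adjusted p under 0.10 31, and leaving out 1 array 5 to 92. Replicate numbers did not pair the arrays (correlations of deviations for equal numbers at 1 and 4 months of -0.105, 0.0481 and -0.0262), and a replicate block gave 5840 age calls and 14 genotype differences. A fit of the 6 Il1rn-deficient arrays alone gave 8911 age calls. The cause of each change was not tested. With 3 arrays a group, and bright probe sets near the highest signals of their arrays, precision is limited.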
